A study of Arabidopsis thaliana with 12 samples.

Results

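The cnu2 line of Arabidopsis thaliana was compared with the wild type Col-0 across 27827 loci, to describe which transcripts still differ from the wild type when a pectin methylesterase inhibitor transgene and a second-site suppressor mutation are present together. The members of the comparison are 6 of the 12 arrays of the series, chosen by their labels: cnu2 replicates A, B and C and Col-0 replicates A, B and C. The cnu2 line is labelled as a suppressor mutant of PMEIox and carries, from knowledge of the study, a mutation in RLP44 (AT3G49750). PMEIox overexpresses the inhibitor PMEI5 (AT2G31430), and cnu1 is another suppressor of PMEIox, whose mutation is known to lie in BRI1 (AT4G39400). All 4 genotypes are in the Col-0 background, and cnu2, cnu1 and PMEIox share the transgene, which Col-0 lacks. Each genotype is represented by a single line as labelled, and the promoter of the transgene is not given in the sources used here. Whole seedlings of every genotype spent 48 h in the cold, 6 h under white light of 100 µmol m-2 s-1 and 4 days in darkness at 22 °C, on medium without sugar. The 3 replicates of a genotype were harvested in successive weeks.

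Pectin is laid down in the plant cell wall with many of its acid groups methylated, and pectin methylesterases remove these methyl groups. Their inhibitors, of which PMEI5 is one, bind the enzymes and leave the pectin more highly methylated, which changes how stiff the wall is. Brassinosteroids are steroid hormones that BRI1 perceives at the cell surface and that promote the elongation of the hypocotyl in darkness, and RLP44 is a receptor-like protein that connects the state of the wall with this pathway.

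Each value is a log2 intensity, 1 per locus and array, so a difference of 1 is a 2-fold difference in signal. The lowest value was 0.785, the median 5.47 and the highest 13.9. Across loci, which are not independent replicates, Pearson correlations of arrays were 0.990 to 0.994 among the cnu2 arrays, 0.991 to 0.993 among the Col-0 arrays and 0.988 to 0.991 between the genotypes. PORA, a protochlorophyllide oxidoreductase gene that is strongly transcribed in dark-grown seedlings, stood at 8.82, 8.60 and 9.12 in cnu2, against 9.35, 9.03 and 9.40 in Col-0. The p-values measure the spread between these biological replicates, which includes differences between the weeks of harvest. Since seedlings were harvested whole, fewer cells of a type and less RNA per cell cannot be told apart.

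PMEI5, the transgene target, is set apart from the results. It had log2 values of 12.53, 12.62 and 12.69 in cnu2, against 8.19, 5.05 and 4.49 in Col-0. The cnu2 values lay within 0.16 of each other, while replicate A of Col-0 stood 3.14 above replicate B of Col-0. The difference was 6.70 ± 0.67 (SE, limma adjusted p = 0.00498), and 7.84 ± 0.14 (SE, limma adjusted p = 2.45e-10) without Col-0 A. PMEI5 stood at 12.69, 12.64 and 12.64 in PMEIox, and cnu2 differed from PMEIox by -0.05 ± 0.67 (SE, limma adjusted p = 0.982). This SE is pooled over the 4 genotypes and carries the spread of Col-0 (SD 1.99, against 0.08 in cnu2 and 0.03 in PMEIox). RLP44 stood at 2.66, 2.84 and 2.65 in cnu2, against 2.57, 3.26 and 2.58 in Col-0. Its difference was -0.09 ± 0.20 (SE, limma adjusted p = 0.915). The mean level of RLP44 lay at percentile 14.8 of all loci, a low signal, so this does not show an unchanged transcript. BRI1 stood at 7.86, 7.75 and 7.76 in cnu2, against 7.56, 7.58 and 7.66 in Col-0, a difference of 0.19 ± 0.09 (SE, limma adjusted p = 0.488). The array measures the level of these transcripts and does not read the mutations. Because replicate A of Col-0 stands apart at PMEI5, the number of calls, the calls that end and the differences and list medians that move most are also given without it below.

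Few transcripts passed the test between cnu2 and Col-0. A locus is called here where limma, fitted to the 12 arrays, gave a p under 0.05 after Benjamini-Hochberg adjustment over all loci. Beside PMEI5, 51 loci were called, 29 higher and 22 lower in cnu2, and with PMEI5 these are 0.187% of all loci. The largest falls were at AT2G16005 and AT2G17080, and the largest rises at AT3G16660, AZI1 and ACS8. Most differences were modest: the median was 0.74 among the called rises and -0.89 among the called falls, or 1.67-fold and 1.85-fold, and 11 of the 51 loci differed at least 2-fold, 4 higher and 7 lower. The smallest called difference was 0.46, at PRE6.

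With PMEI5 counted, 0.108% of all loci were called higher and 0.0791% lower in cnu2. The median difference of all loci was 0.002, the median standard error 0.137 and the median half-width of the 95% confidence interval 0.30. At an unadjusted p under 0.05 there were 3155 loci, or 11.3% of those tested. The 3 cnu2 values and the 3 Col-0 values did not overlap at 4321 loci, or 15.5%, among them every one of the 51. On chromosomes 1 to 5 there were 15, 7, 11, 11 and 8 called loci, PMEI5 included. The other comparisons called more loci: cnu2 against PMEIox called 3.25% (1.78% higher and 1.48% lower), cnu2 against cnu1 0.568%, PMEIox against Col-0 5.25% and cnu1 against Col-0 0.622%. These comparisons share arrays with cnu2 against Col-0, so their counts are not independent of it.

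**Figure D1:**
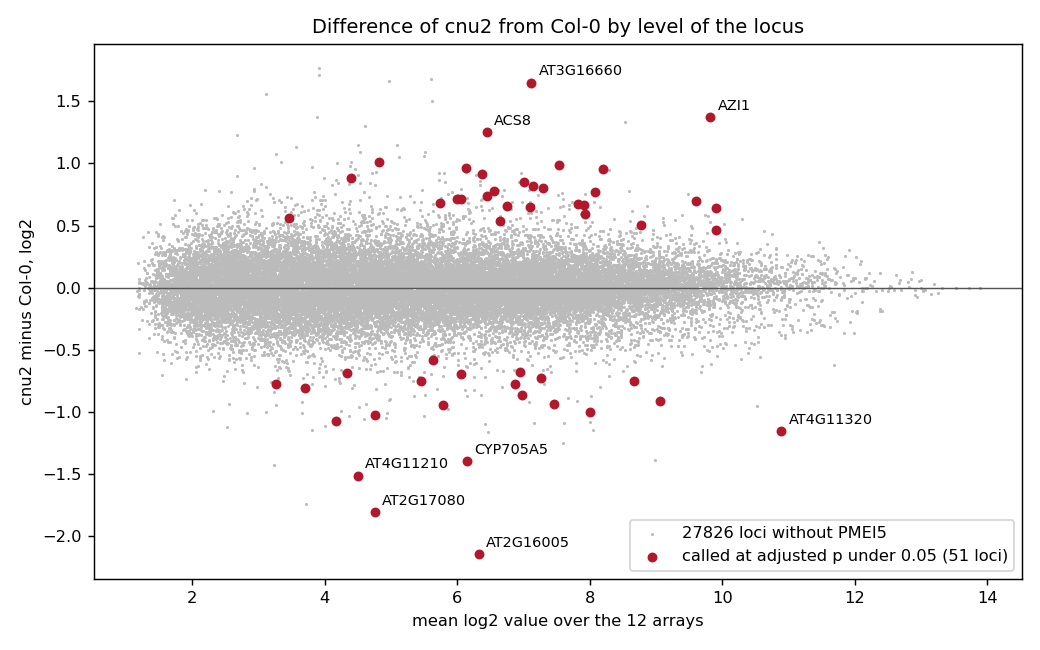
Log2 difference of cnu2 from Col-0 (vertical axis) against the mean log2 value over the 12 arrays (horizontal axis), 1 point per locus, with PMEI5 left out of the plot. The 51 called loci are filled in red. The 29 rises and 22 falls lie on both sides of the line at 0, with AT2G16005 lowest at -2.15 and AT3G16660 highest at 1.65, and uncalled loci (grey) can differ as much: 54 loci, PMEI5 included, differ at least 2-fold whatever their test.

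The count rested on few arrays. It was 11, 16 and 11 without cnu2 A, B or C and 14, 10 and 27 without Col-0 A, B or C, PMEI5 included, and 7 of the 51 loci were called under each of these 6 omissions: AZI1, ACS8, AT3G29644, GH9B8, SAUR46, AT4G11320 and AT2G17080. AT2G16005 was called under 5 of them and lost its call without Col-0 B (limma adjusted p = 0.0528), and 21 loci were called under none. Without Col-0 A, 39 of the 51 calls ended, no difference changed its sign, and the largest change of a difference was 0.25, at AT3G16660 (1.90 without it, 1.65 with it). AT4G11210 was at -1.32 without Col-0 A and -1.51 with it. The 12 loci that kept their call were the 7 above, AT2G16005, AT3G16660, YUC3, ZPR1 and AT4G37409. The fit of the 6 arrays alone called 0 loci (smallest limma adjusted p = 0.0533, 2798 loci at an unadjusted p under 0.05), trend and robust settings 236, and leaving out the 40% of loci with the lowest means 117. With the arrays centred on reference genes, which lowered the median of all loci by 0.084, 36 loci were called, 11 higher and 25 lower, so that 30.6% of calls were rises, where the values as deposited give 57.7%. The 20 calls that ended under it were the rises at YUC3, AT5G67020, AT1G23510, AT5G15180, AT1G17300, UMAMIT36, WAG1, AT4G35160, MYB45, WRKY70, DREB26, NADP-ME1, ZPR1, ARGOS, AT5G14920, AT1G12180, GATL10, AT1G49570 and PRE6 and the fall at FKBP13. With the replicate letter as a block 41 loci were called, and 25 of the 51 lost their call (adjusted p from 0.0509 to 0.0801), which is stated at each such locus below as its blocked adjusted p.

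**Figure D2:**
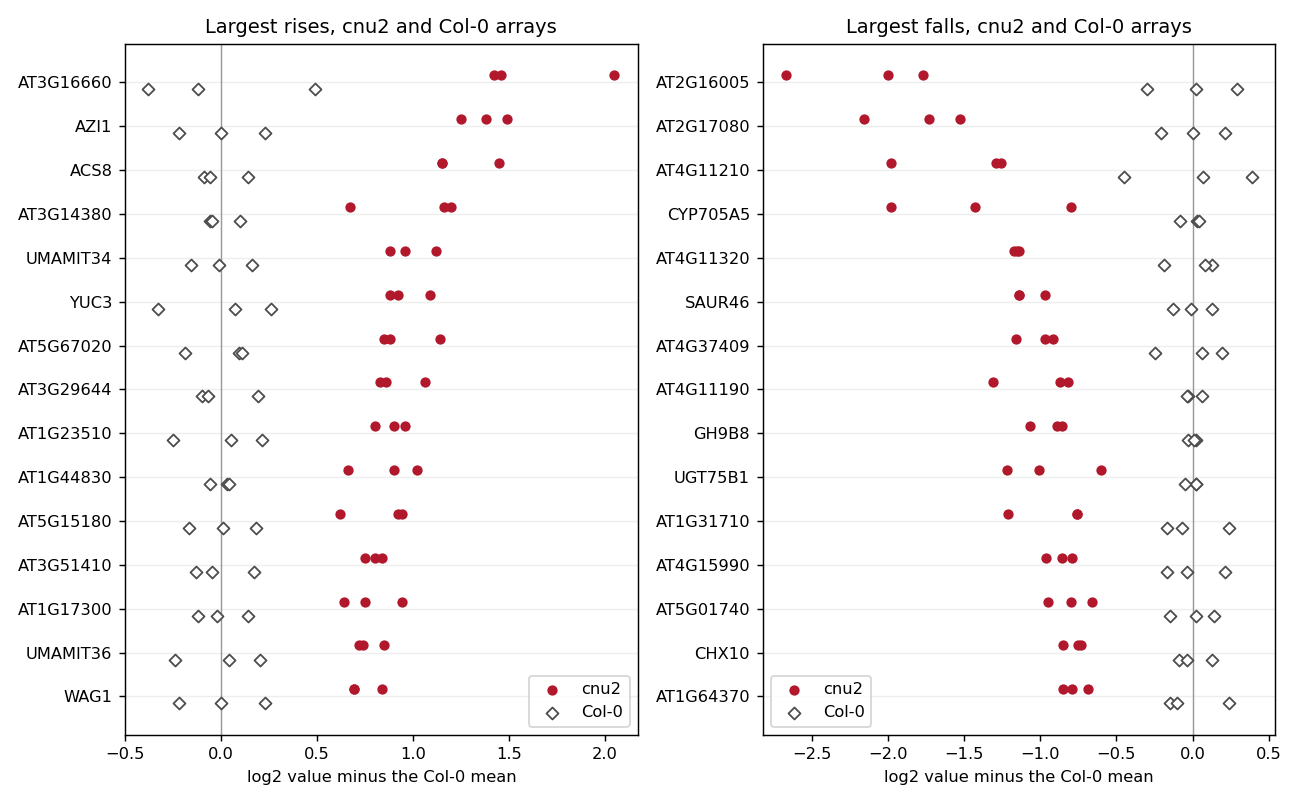
Log2 value on each array minus the Col-0 mean of the locus (horizontal axis) for the 15 largest rises (left) and the 15 largest falls (right) in cnu2, with 1 filled circle per cnu2 array and 1 open diamond per Col-0 array. At no locus shown do the circles and the diamonds overlap, which holds for each of the 51 called loci; the spread within cnu2 is widest at CYP705A5 and AT2G16005.

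Among hormone genes the clearest rise was that of ACS8 (AT4G37770), which encodes an ACC synthase, the enzyme that makes the precursor of ethylene. ACS8 stood at 7.14, 6.84 and 6.84 in cnu2, against 5.60, 5.63 and 5.83 in Col-0. All cnu2 values were more than 1 log2 unit above the highest Col-0 value. The difference was 1.25 ± 0.13 (SE, limma adjusted p = 0.00498), or 2.38-fold. In the list of 15 ethylene genes ACS8 was the only member called, and the list's median was 0.11 against 0.002 for all loci. ACS5, another ACC synthase gene, had a difference of 0.55 (adjusted p = 0.174), the ethylene receptor gene ETR2 0.48 (adjusted p = 0.133) and the ACC oxidase gene ACO4 0.44 (adjusted p = 0.251). ACS11 had one of -0.97 (adjusted p = 0.0637), and its cnu2 values of 5.24, 5.41 and 5.76 lay below its Col-0 values of 6.26, 6.26 and 6.82. These 4 genes, like other uncalled genes named below, were picked after their values were seen.

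YUC3 (AT1G04610), which encodes a flavin monooxygenase of auxin synthesis, stood at 6.37, 6.41 and 6.58 in cnu2, against 5.75, 5.16 and 5.56 in Col-0, a difference of 0.96 ± 0.15 (SE, limma adjusted p = 0.0387, blocked adjusted p = 0.0563). WAG1 (AT1G53700), a protein kinase gene whose product phosphorylates auxin exporters, stood at 6.71, 6.86 and 6.71 in cnu2, against 5.80, 6.02 and 6.25 in Col-0, a difference of 0.74 ± 0.13 (SE, limma adjusted p = 0.0463, blocked adjusted p = 0.059). SAUR46 (AT2G37030), of the family of small auxin-up RNAs, had the opposite sign. It stood at 3.53, 3.53 and 3.70 in cnu2, against 4.66, 4.80 and 4.54 in Col-0, a difference of -1.08 ± 0.12 (SE, limma adjusted p = 0.00584). UGT75B1 (AT1G05560), which encodes a glucosyltransferase that can act on auxin, stood at 5.04, 5.66 and 5.25 in cnu2, against 6.28, 6.28 and 6.21 in Col-0, a difference of -0.94 ± 0.16 (SE, limma adjusted p = 0.0457). SAUR46 was the only called gene among 80 SAUR genes, whose median was 0.14, and 0 of 22 other auxin response genes were called (median 0.16). Centring on reference genes lowers list medians with the median of all loci, so that those from 0 to 0.08 take the opposite sign.

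Several growth regulators had small rises. ARGOS (AT3G59900), an auxin-regulated gene that promotes organ growth, stood at 10.16, 10.15 and 10.10 in cnu2, against 9.46, 9.46 and 9.59 in Col-0, a difference of 0.64 (limma adjusted p = 0.0273). PRE6 (AT1G26945), a small helix-loop-helix protein gene of the group that promotes elongation, stood at 10, 10.06 and 10.02 in cnu2, against 9.57, 9.53 and 9.59 in Col-0, a difference of 0.46 (limma adjusted p = 0.0457, blocked adjusted p = 0.0608). The values of each genotype lay within 0.13 of each other at both genes. AT5G02760, named APD7 in the gene table and a member of clade D of the type 2C protein phosphatases, rose by 0.70 (limma adjusted p = 0.0166), and AT5G14920, named GASA14 there and of the family of gibberellin-regulated peptides, by 0.59 (limma adjusted p = 0.0463, blocked adjusted p = 0.0737). CLE44 (AT4G13195), which encodes a peptide signal that keeps cells of the vascular cambium from becoming xylem, rose by 0.71 (limma adjusted p = 0.0447), and ZPR1 (AT2G45450), a small leucine zipper protein gene that restrains leaf-polarity factors, by 0.65 (limma adjusted p = 0.033, blocked adjusted p = 0.0509).

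The list of 15 growth genes that brassinosteroids induce held 1 rise, PRE6, and 0 falls. Its median was 0.27, against 0.002 for all loci and 0.08 for the 10 reference genes. The same median was 0.31 in PMEIox and 0.29 in cnu1 against Col-0, so its size is not particular to cnu2. Similar medians do not make the members alike: cnu2 minus PMEIox ran from -0.97 to 1.55 over the list. In PMEIox 6 of the 15 genes were called higher and 2 lower than in Col-0, against 5.25% of all loci called. BEE1 had a difference of 0.64 (adjusted p = 0.102), with 7.56, 7.60 and 7.37 in cnu2, against 6.65, 6.99 and 6.96 in Col-0, and BEE3 one of 0.60 (adjusted p = 0.245). No gene of brassinosteroid synthesis (10), inactivation (6) or signalling (18) was called, and their medians were 0.07, 0.12 and 0.07. CPD, an enzyme gene of brassinosteroid synthesis, stood at 9.03, 9.08 and 9.04 in cnu2, against 9.54, 9.42 and 9.43 in Col-0, a difference of -0.42 with a 95% interval from -0.63 to -0.20 (adjusted p = 0.15). BAS1, which encodes a cytochrome P450 that inactivates brassinosteroids, had one of 0.53 with an interval from 0.29 to 0.78 (adjusted p = 0.111). BES1, a transcription factor gene of the pathway, had one of 0.43 (adjusted p = 0.164).

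Wall genes gave 1 clear fall. GH9B8 (AT2G32990), which encodes an endoglucanase of glycoside hydrolase family 9, stood at 7.13, 7.10 and 6.92 in cnu2, against 8.01, 7.96 and 8.0 in Col-0. The Col-0 values lay within 0.05 of each other and every cnu2 value lay at least 0.83 below them. The difference was -0.94 ± 0.11 (SE, limma adjusted p = 0.00596). GATL10 (AT3G28340), of a family of glycosyltransferases related to those that build pectin, rose by 0.54 (limma adjusted p = 0.0457, blocked adjusted p = 0.0572) and was the 1 member called among 34 pectin synthesis genes (median 0.07). AT3G14380, named CASPL2A2 in the gene table for a CASP-like membrane protein, stood at 5.22, 4.73 and 5.26 in cnu2, against 4.00, 4.16 and 4.01 in Col-0, a difference of 1.01 ± 0.14 (SE, limma adjusted p = 0.0166).

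None of 15 genes listed as pectin methylesterases, 3 listed inhibitors other than PMEI5 or 9 pectin depolymerases was called. Nor was any of 36 expansins, 33 XTH genes or 10 genes of primary wall cellulose synthesis. The list medians ran from 0.05 for the methylesterases and the cellulose genes to 0.14 for the inhibitors. Methylesterases and inhibitors were listed by symbol, so the lists need not hold the whole families or only their members. AT1G53840 and AT4G12390, for example, are both named PME1. The methylesterase with the largest difference was PME12, at 7.31, 7.12 and 7.30 in cnu2, against 6.75, 6.25 and 6.49 in Col-0, a difference of 0.75 with a 95% interval from 0.43 to 1.07 (adjusted p = 0.0852). Among the wall receptors 0 of 11 genes were called, with differences from -0.22 to 0.32.

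Genes of transport across membranes stood on both sides. UMAMIT34 (AT4G30420) and UMAMIT36 (AT1G70260) belong to a family of amino acid transporters. UMAMIT34 stood at 8.09, 7.93 and 7.85 in cnu2, against 6.81, 6.96 and 7.13 in Col-0, a difference of 0.99 ± 0.14 (SE, limma adjusted p = 0.0274, blocked adjusted p = 0.0509). UMAMIT36 stood at 8.50, 8.52 and 8.63 in cnu2, against 7.54, 7.82 and 7.98 in Col-0, a difference of 0.77 ± 0.12 (SE, limma adjusted p = 0.0357). These were the 2 genes called among 44 of the family, and the other members had differences from -0.68 at UMAMIT8 to 0.78 at UMAMIT4, with a median of 0.02 over the whole family. SULTR2;1 (AT5G10180), a sulfate transporter gene of the vascular tissue, stood at 6.58, 6.45 and 6.47 in cnu2, against 7.21, 7.08 and 7.24 in Col-0, a difference of -0.68 ± 0.12 (SE, limma adjusted p = 0.0463, blocked adjusted p = 0.0737). It was the 1 member called among 17 genes of the response to sulfur shortage (median -0.03). All 17 were lower in cnu2 than in cnu1, 7 of them called (median -0.56), against 0.568% of all loci called in that comparison. The cnu1 line itself stood apart from Col-0 at these genes, with 5 called higher (median 0.57), against 0.622% of all loci called. CHX10 (AT3G44930), of a family of cation exchangers, stood at 2.92, 3.02 and 3.04 in cnu2, against 3.68, 3.90 and 3.73 in Col-0, a difference of -0.78 ± 0.12 (SE, limma adjusted p = 0.0286, blocked adjusted p = 0.0509).

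Defence-related genes were few. AZI1 (AT4G12470), a gene of the lipid transfer protein family known from the priming of systemic immunity, stood at 10.44, 10.55 and 10.31 in cnu2, against 8.84, 9.29 and 9.06 in Col-0. The lowest cnu2 value was above the highest Col-0 value by more than 1 log2 unit. The difference was 1.37 ± 0.16 (SE, limma adjusted p = 0.00584), or 2.58-fold. Its neighbour EARLI1, of the same family, stood at 4.37, 4.92 and 3.84 in cnu2, against 3.13, 3.80 and 2.77 in Col-0, a difference of 1.15 with a 95% interval from 0.33 to 1.96 (adjusted p = 0.264). The other 2 genes listed for this cluster, AT4G12490 and AT4G12500, had differences of -0.33 and -0.05. Next to them on the chromosome, AT4G12510 had a difference of 0.77 (adjusted p = 0.146) and AT4G12520 one of 0.60 (adjusted p = 0.191). At both the values of cnu2 and Col-0 did not overlap.

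WRKY70 (AT3G56400), a transcription factor gene of salicylate and jasmonate responses, rose by 0.67 (limma adjusted p = 0.0447, blocked adjusted p = 0.066) and was the 1 member called among 16 defence genes (median -0.05), among which PR1, a marker of salicylate responses, stood at 1.75, 2.01 and 1.66 in cnu2, against 1.82, 1.75 and 2.01 in Col-0. ICS2 (AT1G18870), 1 of a pair of isochorismate synthase genes, fell by 0.70 (limma adjusted p = 0.0463, blocked adjusted p = 0.0608), with 5.87, 5.79 and 5.70 in cnu2, against 6.38, 6.76 and 6.32 in Col-0. In the list of 20 jasmonate genes 0 were called (median -0.01).

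CYP705A5 (AT5G47990), a cytochrome P450 gene of the thalianol triterpene cluster, stood at 5.87, 6.50 and 5.32 in cnu2, against 7.33, 7.34 and 7.22 in Col-0. The Col-0 values lay within 0.12 of each other, whereas the cnu2 values spread over 1.18. The difference was -1.40 ± 0.24 (SE, limma adjusted p = 0.0463, blocked adjusted p = 0.0707). Next to it on the chromosome, CYP708A2, a further P450 gene of the cluster, had a difference of -1.03 (adjusted p = 0.0518), and the thalianol synthase gene THAS1 one of -1.04 (adjusted p = 0.0852), and at both the values of cnu2 and Col-0 did not overlap. The other 4 genes on the list of thalianol and marneral clusters had differences from -0.14 to 0.46.

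CYP83B1 (AT4G31500), which encodes a P450 enzyme at the entry to indole glucosinolates, stood at 8.54, 8.38 and 8.21 in cnu2, against 9.24, 9.10 and 9.05 in Col-0, a difference of -0.75 ± 0.10 (SE, limma adjusted p = 0.0166). It was the only member called in cnu2 against Col-0 among 22 glucosinolate genes (median -0.13). CYP83B1 was called lower than in Col-0 in PMEIox (-0.53, limma adjusted p = 0.00839) and in cnu1 (-0.57, limma adjusted p = 0.0251) as well. CYP79B3 and CYP79B2, whose products act before it in the same pathway, had differences of -0.52 (adjusted p = 0.0924) and -0.50 (adjusted p = 0.289). UGT76E11 (AT3G46670), of the family of UDP-glucosyltransferases, stood at 5.14, 5.14 and 5.09 in cnu2, against 6.10, 5.89 and 5.62 in Col-0, a difference of -0.75 ± 0.12 (SE, limma adjusted p = 0.0447). NADP-ME1 (AT2G19900), a malic enzyme gene, rose by 0.66 (limma adjusted p = 0.0281), with 7.02, 7.04 and 7.24 in cnu2, against 6.32, 6.45 and 6.55 in Col-0.

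A pair of genes for chloroplast proteins were called lower. FKBP13 (AT5G45680), an immunophilin gene of the thylakoid lumen, stood at 6.94, 6.77 and 7.0 in cnu2, against 7.69, 7.56 and 7.65 in Col-0, a difference of -0.73 ± 0.12 (SE, limma adjusted p = 0.0463, blocked adjusted p = 0.0563). AOR (AT1G23740), which encodes an alkenal/one oxidoreductase, fell by 0.58 (limma adjusted p = 0.0463, blocked adjusted p = 0.0509). Beside them, 0 of 13 genes of light and greening were called, while their median was -0.34, the lowest of the 40 lists. Of the 13 genes 8 had an unadjusted p under 0.05, against 11.3% of all loci. The list's median was -0.19 in PMEIox and -0.16 in cnu1 against Col-0, and -0.11 for cnu2 minus PMEIox with 0 called. The mean of this list was 6.91, 7.0 and 7.02 in cnu2, against 7.37, 7.43 and 7.15 in Col-0, with no overlap. ELIP2, an early light-induced protein gene, had a difference of -0.82 (adjusted p = 0.151), and LHCB1.3, a light-harvesting protein gene, one of -0.68 (adjusted p = 0.138). The part of this list in the lower values of FKBP13 and AOR was not tested.

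Further regulators were among the rises. The transcription factor genes MYB45 (AT3G48920) and DREB26 (AT1G21910) rose by 0.68 (limma adjusted p = 0.0486, blocked adjusted p = 0.0801) and by 0.67 (limma adjusted p = 0.0306). AT3G29644, listed in the gene table as a long noncoding RNA, stood at 6.57, 6.77 and 6.54 in cnu2, against 5.61, 5.90 and 5.64 in Col-0. Its difference was 0.91 ± 0.10 (SE, limma adjusted p = 0.00584), and PMEIox (0.86) and cnu1 (0.88) stood as far from Col-0.

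The largest differences fell to loci that the gene table names by locus alone. AT2G16005 stood at 4.59, 5.49 and 5.26 in cnu2, against 6.96, 7.55 and 7.28 in Col-0, a difference of -2.15 ± 0.26 (SE, limma adjusted p = 0.00734), or 4.43-fold lower. AT2G17080 stood at 3.88, 3.45 and 4.08 in cnu2, against 5.82, 5.61 and 5.40 in Col-0, a difference of -1.81 ± 0.20 (SE, limma adjusted p = 0.00584), or 3.5-fold lower. At both loci the highest cnu2 value lay more than 1 log2 unit below the lowest Col-0 value. AT3G16660, the largest rise, stood at 7.25, 7.88 and 7.29 in cnu2, against 6.32, 5.71 and 5.45 in Col-0, a difference of 1.65 ± 0.26 (SE, limma adjusted p = 0.0387), or 3.14-fold. Its Col-0 values spread more than those of most rises, with replicate A highest, and its call held under 1 of the 6 omissions.

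Neighbouring loci on chromosome 4 fell as well. AT4G11190 and AT4G11210 follow each other in the gene order with no measured locus between them, and 12 measured loci lie between AT4G11210 and AT4G11320, named CP2 there for cysteine protease 2. AT4G11320 stood at 10.77, 10.74 and 10.76 in cnu2, against 11.72, 12.04 and 11.99 in Col-0, a difference of -1.16 ± 0.13 (SE, limma adjusted p = 0.00584). AT4G11190 stood at 8.09, 8.04 and 7.60 in cnu2, against 8.88, 8.87 and 8.97 in Col-0, a difference of -1.0 ± 0.14 (SE, limma adjusted p = 0.0166). AT4G11210 stood at 4.08, 4.05 and 3.36 in cnu2, against 5.73, 4.89 and 5.41 in Col-0, a difference of -1.51 ± 0.23 (SE, limma adjusted p = 0.0357, blocked adjusted p = 0.0509). AT4G11310, directly beside AT4G11320, stood at 5.12, 5.28 and 5.48 in cnu2, against 5.16, 5.40 and 5.53 in Col-0, a difference of -0.07 (adjusted p = 0.908). AT4G11211, the next measured locus after AT4G11210, had one of -0.46 (adjusted p = 0.254).

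The remaining called loci, given here by locus identifier alone, differed by 0.51 to 1.02 in size. The rises were at AT5G67020 (0.95, blocked adjusted p = 0.0563), AT1G23510 (0.88, blocked adjusted p = 0.0608), AT1G44830 (0.85), AT5G15180 (0.82, blocked adjusted p = 0.0597), AT3G51410 (0.80), AT1G17300 (0.78, blocked adjusted p = 0.0582), AT4G35160 (0.71), AT1G12180 (0.56, blocked adjusted p = 0.0628) and AT1G49570 (0.51, blocked adjusted p = 0.059). The falls were at AT4G37409 (-1.02), AT1G31710 (-0.91, blocked adjusted p = 0.0774), AT4G15990 (-0.87, blocked adjusted p = 0.0571), AT5G01740 (-0.81), AT1G64370 (-0.77) and AT3G06880 (-0.69, blocked adjusted p = 0.0737). The limma adjusted p of these 15 loci ran from 0.0166 to 0.0485. AT1G49570, the smallest of these differences, stood at 8.95, 8.93 and 8.94 in cnu2, against 8.50, 8.45 and 8.35 in Col-0.

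Each of the 51 loci was then set beside PMEIox, the line that carries the transgene without the suppressor mutation. For 15 of the 51 the difference between cnu2 and PMEIox was itself called, and for 36 it was not. Both comparisons use the cnu2 arrays, so the count is not read against the 3.25% of all loci called in cnu2 against PMEIox. The 15 loci fall into 8 at which cnu2 stood between PMEIox and Col-0 and 7 at which cnu2 stood further from Col-0 than PMEIox did.

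At AT3G14380, AT3G51410, CLE44, AT5G14920, AT5G01740, AT4G11190, AT4G11320 and CYP705A5, cnu2 lay between PMEIox and Col-0. AT4G11320 differed by -1.16 in cnu2 and by -2.89 in PMEIox from Col-0, with cnu2 minus PMEIox at 1.73 ± 0.13 (SE, limma adjusted p = 3.18e-05). CYP705A5 differed by -1.40 in cnu2 and by -3.21 in PMEIox from Col-0, with cnu2 minus PMEIox at 1.81 ± 0.24 (SE, limma adjusted p = 0.0015). AT4G11190 differed by -1.0 in cnu2 and by -2.58 in PMEIox from Col-0. CASPL2A2 (AT3G14380) differed by 1.01 in cnu2 and by 2.18 in PMEIox from Col-0, and CLE44 by 0.71 in cnu2 and 1.48 in PMEIox. At these 5 loci the cnu2 values overlapped with neither those of PMEIox nor those of Col-0.

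At 7 loci PMEIox stood near Col-0 and cnu2 differed from both. SULTR2;1 stood at 6.58, 6.45 and 6.47 in cnu2, against 7.41, 7.09 and 7.18 in PMEIox, with cnu2 minus PMEIox at -0.73 ± 0.12 (SE, limma adjusted p = 0.00518) and PMEIox minus Col-0 at 0.05. UGT76E11 differed by -0.74 (limma adjusted p = 0.00629) and FKBP13 by -0.68 (limma adjusted p = 0.0114) between cnu2 and PMEIox. AT3G06880 differed by -0.73 (limma adjusted p = 0.00451) between cnu2 and PMEIox. AT5G67020 was higher in cnu2 than in PMEIox by 1.08 (limma adjusted p = 0.00322), UMAMIT36 by 0.53 (limma adjusted p = 0.0344) and AT1G12180 by 0.41 (limma adjusted p = 0.0392). PMEIox minus Col-0 ran from -0.13 at AT5G67020 to 0.24 at UMAMIT36 over these loci, and none of the 7 was called in that comparison. In cnu1 against Col-0, UGT76E11 (-0.94, limma adjusted p = 0.00611) and FKBP13 (-0.71, limma adjusted p = 0.0243) were called as well. The others had the same sign there without a call: AT5G67020 0.73 (limma adjusted p = 0.0703), AT3G06880 -0.36, AT1G12180 0.32, SULTR2;1 -0.28 and UMAMIT36 0.17. None of the 7 was called in cnu2 against cnu1.

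At the other 36 loci the difference between cnu2 and PMEIox missed the threshold, which does not show that the lines are alike. Its size ran from 0.01 to 0.93. AZI1 differed by 0.10 between cnu2 and PMEIox, with a 95% interval from -0.24 to 0.44, beside 1.37 against Col-0. ACS8 differed by -0.15 (interval -0.43 to 0.12), SAUR46 by 0.11 (interval -0.15 to 0.38) and GH9B8 by 0.10 (interval -0.13 to 0.34). AT2G16005 differed by 0.30 between cnu2 and PMEIox (interval -0.27 to 0.86), beside -2.15 in cnu2 and -2.44 in PMEIox against Col-0. At AT3G16660 cnu2 stood 0.93 above PMEIox (interval 0.36 to 1.5, adjusted p = 0.0832).

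**Figure D3:**
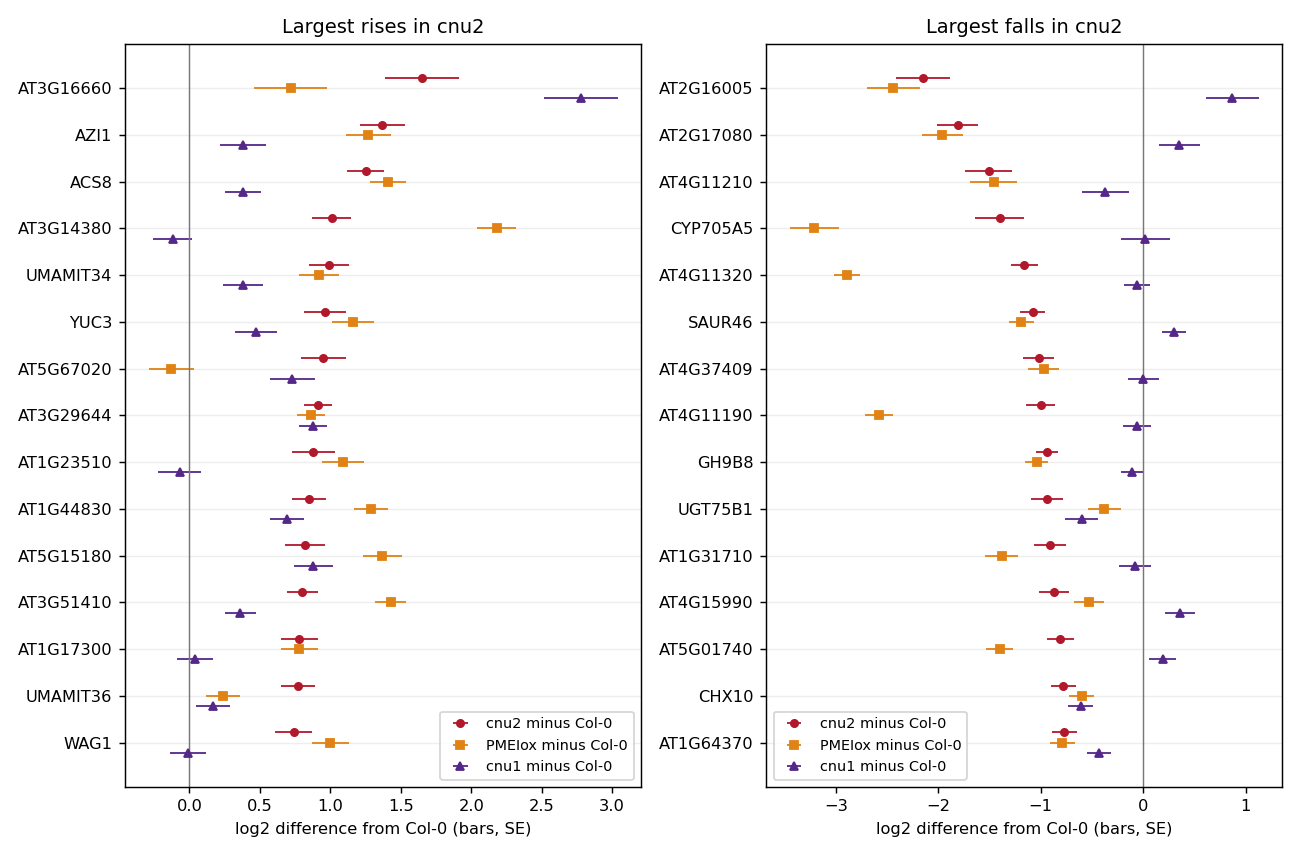
Log2 difference from Col-0, with its standard error, of cnu2 (red circles), PMEIox (orange squares) and cnu1 (purple triangles) at the 15 largest rises (left) and the 15 largest falls (right) in cnu2. PMEIox lies beyond cnu2 at AT3G14380, CYP705A5, AT4G11320 and AT4G11190, near 0 at AT5G67020, and within 0.30 of cnu2 at AZI1, ACS8, SAUR46, GH9B8 and AT2G16005. The 3 differences of a locus share the Col-0 arrays.

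Between the 2 suppressor lines, 18 of the 51 loci differed by the test and 33 did not; this comparison, too, uses the cnu2 arrays, and 0.568% of all loci were called in it. AT2G16005 stood at 4.59, 5.49 and 5.26 in cnu2, against 8.07, 8.0 and 8.31 in cnu1, a difference of -3.01 ± 0.26 (SE, limma adjusted p = 0.000529). SAUR46 stood at 3.53, 3.53 and 3.70 in cnu2, against 4.89, 5.09 and 4.93 in cnu1 (-1.38, limma adjusted p = 0.000529), and ACS8 at 7.14, 6.84 and 6.84 in cnu2, against 6.09, 5.86 and 6.25 in cnu1 (0.87, limma adjusted p = 0.00937). At the 18 loci cnu1 differed from Col-0 by no more than 0.87 in size, and none was called in cnu1 against Col-0. At other loci the difference between the suppressors was near 0: cnu2 minus cnu1 was 0.01 at WRKY70, 0.03 at AT3G29644 and -0.02 at FKBP13. AT3G16660 stood at 8.60, 8.76 and 8.47 in cnu1, above cnu2 (-1.13 for cnu2 minus cnu1, adjusted p = 0.104). Called in cnu1 against Col-0 as well, with the same sign, were AT3G16660, AT3G29644, AT1G44830, AT5G15180, MYB45, WRKY70, AOR, FKBP13, UGT76E11, CYP83B1 and CHX10. Of these, all but AT3G16660, AOR, FKBP13 and UGT76E11 were also called in PMEIox against Col-0. Both comparisons share the Col-0 arrays with cnu2 against Col-0, and 0.622% and 5.25% of all loci were called in them.

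In 29 of the 40 lists no member was called in cnu2 against Col-0. Over all lists 12 of the 687 members were called, PMEI5 included, beside 0.187% of all loci. The lists were chosen with earlier results of these data known, so neither count is a result about them. The medians of 34 lists lay within 0.20 of 0. Some medians depended on Col-0 A: that of cold and dehydration was -0.09 without it and -0.30 with it, that of brassinosteroid-induced growth genes 0.14 and 0.27, that of low oxygen 0.14 and 0.23, and that of light and greening -0.27 and -0.34. None of the 10 seed storage genes was called in cnu2 against Col-0 (median 0.08), whereas 9 were called lower in cnu2 than in PMEIox (median -2.55, with values from -3.51 to -0.76) and all 10 were called higher in PMEIox than in Col-0 (median 2.73). Of all loci 1.48% were called lower in cnu2 than in PMEIox, and 5.25% were called in PMEIox against Col-0. These 3 comparisons share arrays in pairs, so their values are set side by side and not counted as separate evidence. SESA3, a storage albumin gene, stood at 5.96, 6.40 and 6.75 in cnu2, against 6.32, 6.21 and 6.63 in Col-0, a difference of -0.01 with a 95% interval from -0.43 to 0.40. The cruciferin genes had wider values. CRA1 stood at 6.65, 8.71 and 9.24 in cnu2, against 6.99, 6.62 and 6.98 in Col-0, a difference of 1.34 with an interval from -0.18 to 2.85, and CRU3 at 6.91, 8.08 and 8.61 in cnu2, against 6.98, 6.67 and 7.12 in Col-0, 0.95 (interval 0.03 to 1.86). At both genes cnu2 A lay with Col-0, while cnu2 B and C lay above every Col-0 value. Of 17 late embryo and oil body genes 0 were called against Col-0 (median 0.07), and 8 were called lower in cnu2 than in PMEIox (median -0.62).

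The secondary wall and lignin lists showed the same order with the opposite sign. Of all loci 1.78% were called higher in cnu2 than in PMEIox, and 5.25% were called in PMEIox against Col-0. Of 19 secondary wall genes 0 were called in cnu2 against Col-0 (median -0.08), 6 were called higher in cnu2 than in PMEIox (median 0.48) and 10 were called lower in PMEIox than in Col-0 (median -0.64). Of 18 lignin genes 0 were called in cnu2 against Col-0 (median -0.19), 7 were called higher in cnu2 than in PMEIox (median 0.45) and 13 were called lower in PMEIox than in Col-0 (median -0.62). The mean of the lignin list was 8.10, 8.14 and 7.96 in cnu2, against 8.31, 8.32 and 8.16 in Col-0, with no overlap, and the values of 8 of the 18 genes did not overlap, against 15.5% of all loci. LAC2, a laccase gene, stood at 8.31, 8.38 and 7.80 in cnu2, against 8.82, 8.50 and 8.44 in Col-0, a difference of -0.43 with an interval from -0.84 to -0.01 (adjusted p = 0.423), and cnu2 stood 1.89 above PMEIox (limma adjusted p = 0.000243). PAL4, of the family that opens the phenylpropanoid pathway, stood at 7.21, 7.15 and 6.85 in cnu2, against 7.47, 7.96 and 7.49 in Col-0, a difference of -0.57 (interval -0.89 to -0.25, adjusted p = 0.174). CESA4, IRX3 and IRX1, the cellulose synthase genes of the secondary wall, had differences of -0.16, -0.26 and -0.28 from Col-0.

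**Figure D4:**
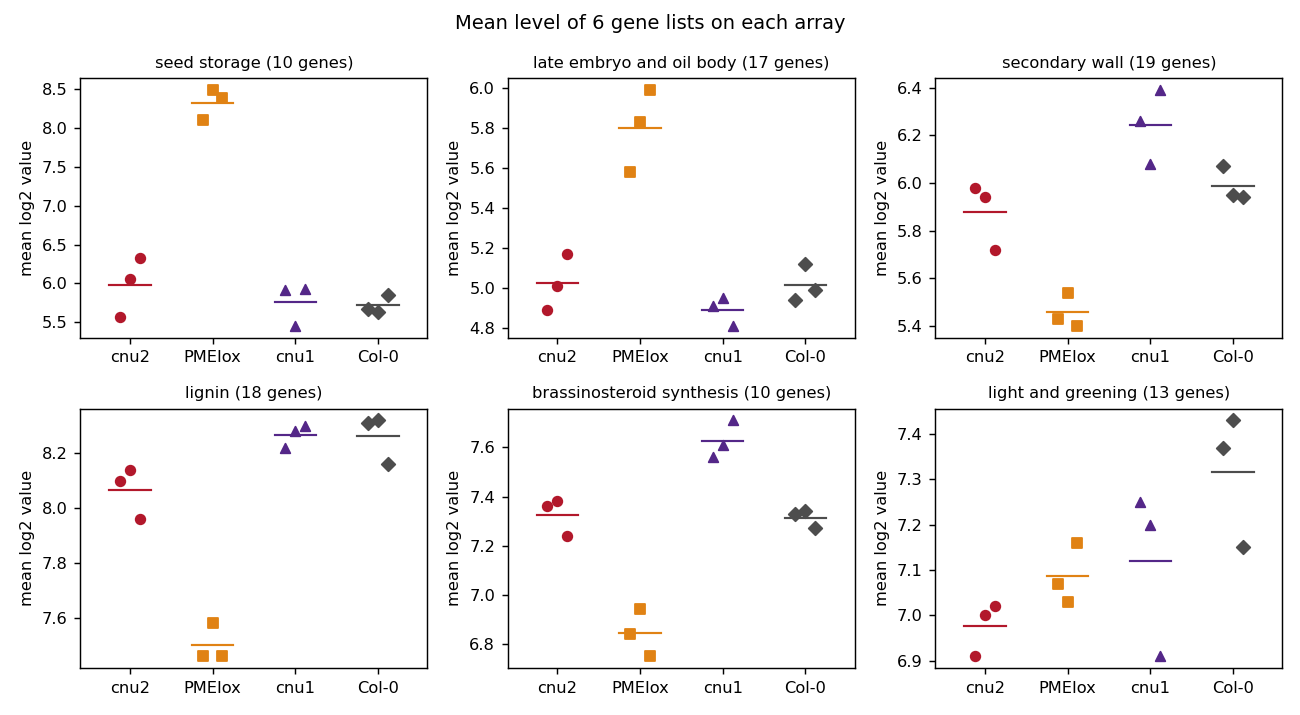
Mean log2 value of the members of 6 gene lists on each array, 1 point per array and a line at the genotype's mean, for cnu2, PMEIox, cnu1 and Col-0 from left to right; each panel has its own vertical axis, which does not start at 0. The cnu2 points lie among or near those of Col-0 for seed storage, late embryo, secondary wall and brassinosteroid synthesis genes, below Col-0 without overlap for lignin and for light and greening genes, and away from PMEIox in the first 5 panels.

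EB1A, which encodes a microtubule end-binding protein and is the member of its family that stood apart in PMEIox, had 6.51, 6.29 and 6.33 in cnu2, against 6.37, 6.12 and 6.18 in Col-0. The difference was 0.15 with an interval from -0.19 to 0.49, while cnu2 minus PMEIox was -3.55 (limma adjusted p = 7.99e-07). EARLI1, described above with AZI1, differed by -3.13 between cnu2 and PMEIox (limma adjusted p = 0.00077), beside a difference of 0.10 at AZI1. AZI1 stood at 10.44, 10.55 and 10.31 in cnu2, against 10.53, 10.31 and 10.16 in PMEIox, with overlap, and EARLI1 at 4.37, 4.92 and 3.84 in cnu2, against 7.72, 7.40 and 7.39 in PMEIox, without.

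Markers of organs and states were examined for the same contrast. Among 31 root hair genes, 6 root tissue genes, 6 darkness markers and 8 cell division genes none was called in cnu2 against Col-0, with medians of 0.04, -0.11, -0.09 and -0.04. The mean of the root hair list ran from 3.92 to 3.97 in cnu2 and from 3.85 to 3.95 in Col-0, and that of the root tissue list from 4.34 to 4.47 in cnu2 and from 4.40 to 4.61 in Col-0. Of 12 low oxygen genes 0 were called against Col-0 (median 0.23). In cnu2 4 were called higher than in PMEIox (median 0.31) and 3 higher than in cnu1 (median 0.46). Of all loci 3.25% were called in cnu2 against PMEIox and 0.568% in cnu2 against cnu1. The medians of PMEIox and cnu1 themselves lay below Col-0 at this list. PMEIox had 1 gene called lower than in Col-0 (median -0.17) and cnu1 had 2 (median -0.26), against 5.25% and 0.622% of all loci called. PDC1, a gene of ethanolic fermentation, stood at 6.12, 6.72 and 6.12 in cnu2, against 5.33, 5.76 and 5.80 in Col-0 (0.69, adjusted p = 0.313). Of 13 cold and dehydration genes 0 were called (median -0.30), with wide spread in both genotypes: COR6.6 stood at 8.53, 9.40 and 8.42 in cnu2, against 10.24, 10.81 and 9.45 in Col-0 (-1.39, adjusted p = 0.186). The 14 genes of seed oil breakdown, 20 gibberellin genes, 15 flavonoid genes, 13 heat shock genes and 11 clock genes held 0 calls, with medians of -0.09, 0.04, -0.09, -0.27 and -0.09.

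**Figure D5:**
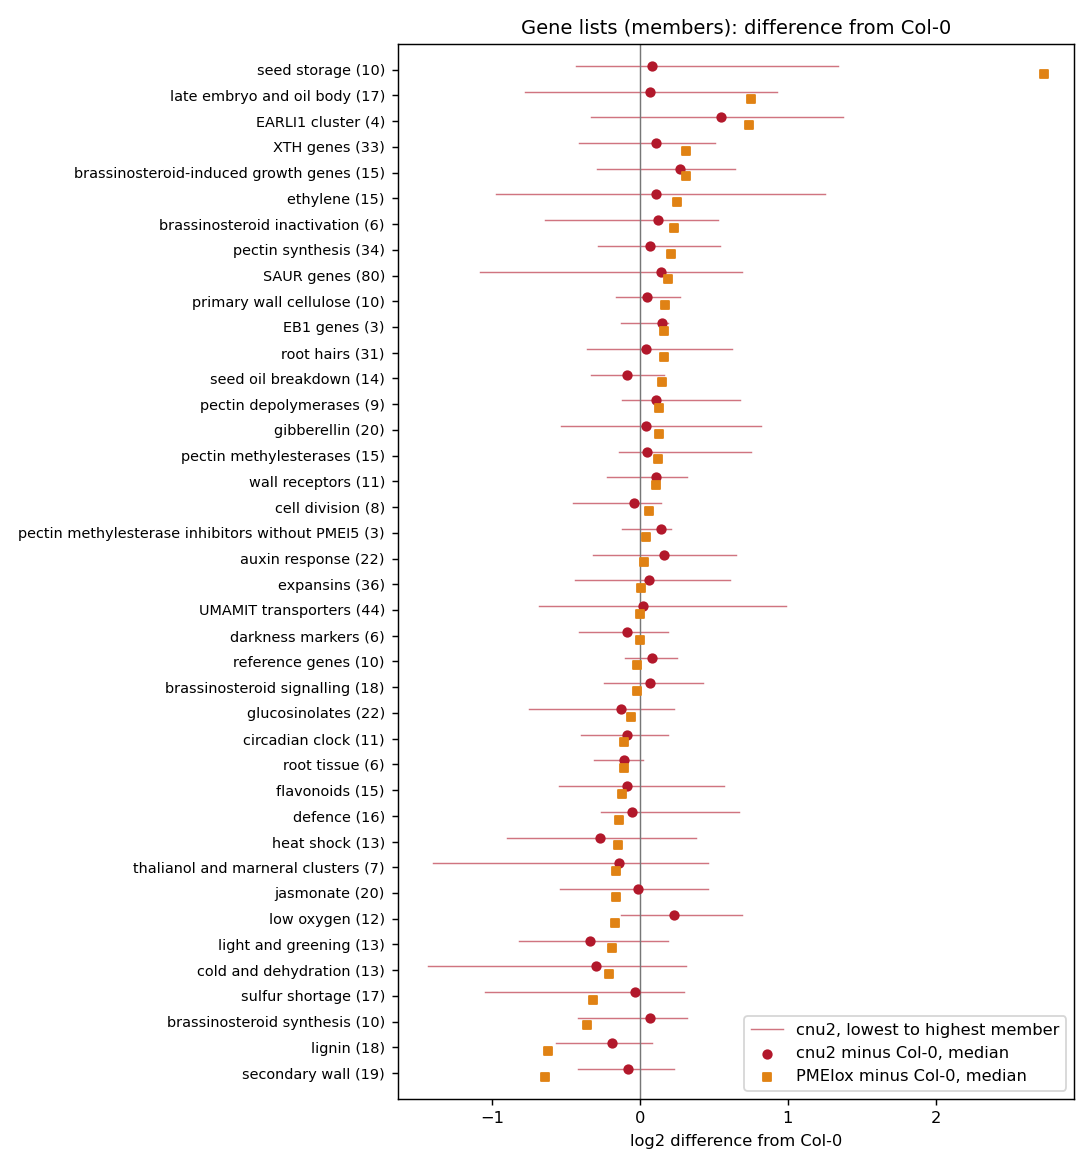
Median log2 difference from Col-0 of the members of each gene list, for cnu2 (red circles, with a line from the lowest to the highest member) and PMEIox (orange squares), with the number of members in brackets and the lists ordered by the PMEIox median. The cnu2 medians lie between -0.34 for light and greening and 0.55 for the 4 genes listed for the EARLI1 cluster. At seed storage the medians are 0.08 in cnu2 and 2.73 in PMEIox. Both medians of a list share the Col-0 arrays.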

How the data were processed

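The deposited values are log2 intensities, 1 per locus and array, from Affymetrix arrays hybridised with biotinylated cRNA, per the labels' protocols. That the base is 2 was read from how far the values range. The array type, background correction, probe summary, software and genome build are not given in the sources used here. The sorted values of the 12 arrays were identical (largest difference 0), and the values were used as deposited. Locus identifiers were matched to RefSeq's gene table (TAIR10.1) for names and gene order; 27241 matched and 586 did not. No sequences were used. The number of arrays limits the precision.

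The means of the 4 genotypes were fitted to all 12 arrays with limma 3.58.1 (lmFit and eBayes, R 4.3.3; 8 residual and 4.06 prior degrees of freedom), with two-sided p-values adjusted by Benjamini-Hochberg over 27827 loci and a threshold of 0.05. The procedure was tested on simulated data. Every adjusted p in the text comes from these fits; a blocked adjusted p is that of the fit with the replicate letter as a block.

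Replicate letters were checked for pairing. Deviations from the genotype means correlated by 0.1002, 0.1373 and 0.1725 between cnu2 and Col-0 arrays A, B and C. All lay above the limit of 0.1, A only narrowly, which is where the pairing comes from. Between cnu2 and PMEIox the values were 0.0912, 0.1012 and 0.1903, so A lay below the limit. The pair of cnu2 B and cnu1 C, with unlike letters, reached 0.1252. The design text gives successive weeks but does not tie letters to weeks.

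By rule, the text names the 15 loci that rose most and the 15 that fell most among called loci without overlap, up to 4 called members of each list, and PMEI5, RLP44 and BRI1. The other called loci and uncalled genes were named after their values were seen. The comparison, the 40 lists (687 members at 679 loci, 2 further ones not measured) and the rule were chosen with earlier results of these data known. Alternatives were quantile normalization, centring on 10 reference genes, a filter leaving out the lowest 40% of loci (16697 kept), array weights, trend with robust variances (statmod 1.5.0), the compared genotypes alone, the block, a minimum fold of 2, and leaving out arrays. Counts and plots were made in Python 3.11.15 with matplotlib 3.10.9.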

Additional observations from a re-analysis of the deposited data

Results flagged for a closer look

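At 18 of the 51 loci called in cnu2 against Col-0, the distance of cnu2 from Col-0 differed from that of cnu1 by the limma test of cnu2 against cnu1. In genes with a symbol, cnu2 minus cnu1 was 0.99 at AZI1, 0.87 at ACS8, 0.75 at WAG1, -0.83 at GH9B8, -1.38 at SAUR46 and -1.41 at CYP705A5. At loci of the chromosome 4 stretch it was -0.94 at AT4G11190 and -1.10 at AT4G11320. At the other rises it was 1.13 at AT3G14380, 0.96 at AT1G23510, 0.74 at AT1G17300 and 0.44 at AT1G49570. At the other falls it was -0.99 at AT5G01740, -1.23 at AT4G15990, -0.83 at AT1G31710, -1.02 at AT4G37409, -2.15 at AT2G17080 and -3.01 at AT2G16005. All values are log2 differences, and 0.568% of all loci were called in this comparison, which shares the cnu2 arrays with cnu2 against Col-0.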

How the results depend on the processing

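Quantile normalization called 52 loci in cnu2 against Col-0, array weights 67, centring on the reference genes 36 and the replicate block 41. The count was 117 without the lowest 40% of loci, 236 with trend and robust settings, 0 with the 2 genotypes alone and 12 at a minimum fold of 2. Leaving out 1 array of cnu2 or Col-0 gave 10 to 27 loci, and leaving out 1 of PMEIox or cnu1, an alternative added after seeing the data, 18 to 35. In cnu2 against PMEIox 905 loci were called, 1490 with trend and robust settings, 441 with the 2 genotypes alone, 196 at a minimum fold of 2, 975 with the replicate block and 395 to 874 without 1 array (fewest without cnu2 B, 428 without PMEIox A). In cnu2 against cnu1 158 were called, 267 with trend and robust settings, 89 with the 2 genotypes alone, 59 at a minimum fold of 2, 172 with the replicate block and 66 to 160 without 1 array (fewest without cnu1 A). Same-letter deviations of cnu2 and cnu1 arrays did not correlate in this way (0.0028, -0.0152 and -0.1365). None of the called differences changed its sign under these alternatives, apart from 7 of the 51 loci that the filter on the lowest 40% left out and so did not test. Centring ended 20 of the 51 calls, 19 of them rises (adjusted p from 0.051 to 0.127), and the 2 genotypes alone ended all 51 (adjusted p from 0.0533 to 0.269), in a fit with fewer arrays. Another background correction was not run, since the table holds 1 processed value per locus, nor was the motif search in promoters, for which no sequences were used here. With 3 arrays per genotype the median interval half-width was 0.30 in cnu2 against Col-0, and what could be detected differed by locus with its standard error.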
